A study of Mus musculus with 12 samples.

Results

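Tudor domain proteins of germ granules were followed at the transcript level in mouse male germ cells at 4 stages. The group holds 8 genes chosen by name, Tdrd1, Tdrd3, Tdrd5, Tdrd6, Tdrd7, Tdrd12, Rnf17 and Stk31, out of 55487 genes in the deposited table. Each was found under 1 Ensembl identifier, and all 8 passed the filter on low values (10 or more normalized counts in 3 or more libraries), as did 22384 genes in all. RNA sequencing was done on 12 samples, in sets of 3 from embryos at E13.5 or E16.5 (embryonic days), from newborns (P0) and from postnatal day P3. The cells, called gonocytes in the labels, came from testes of Mvh-Venus transgenic mice, in which a fluorescent protein marks the germ line through the promoter of the germ cell gene Ddx4 (Mvh). Every title and every source name carries the word WT (wild type), whereas the genotype tag reads Morc1 (+/-) at E13.5 and P0 and Morc1 (-/-) at E16.5 and P3. Stage and tag therefore cannot be told apart in a comparison of consecutive stages, and only P0 with E13.5 and P3 with E16.5 stay within 1 tag. The labels do not say whether the 3 samples of a stage came from separate animals or pools, so p-values measure the spread between these samples, which may be technical.

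The Tudor domain is a small barrel-like fold with an aromatic pocket that binds methylated arginine or lysine. In the germ line, PIWI proteins carry dimethylated arginines near their amino terminus, and Tudor proteins with several such domains bind them and gather PIWI proteins, helicases and RNA into granules (intermitochondrial cement and piP-bodies in fetal gonocytes, the chromatoid body in spermatids). These granules are where piRNAs, the small RNAs that direct silencing of transposons, are made and amplified. Mutations of several of these genes in mice lead to loss of transposon silencing or arrest of sperm formation.

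Values are normalized counts, that is, the reads of a gene over the size factor of its library. The reads assigned to genes numbered 40946616 to 51533747 per library, and among the members only Tdrd6 at E13.5 rests on few reads. Libraries are named by stage and by the number 1, 3 or 4 in the column heads. Errors are SD over the 3 libraries of a stage unless given as a standard error (SE), and "changed" means a Benjamini-Hochberg adjusted p under 0.05 over all 22384 genes in limma. The P0 libraries had size factors of 1.94 ± 0.118, against means of 0.939 ± 0.0175 to 1.13 ± 0.117 for the other stages, and from 34207 to 34857 genes with a read, against 22678 to 22774 at E13.5. The choice of scaling therefore moves every fold change that involves P0. The 5 germ cell markers (Ddx4, Dazl, Dnd1, Tfap2c and Sall4) summed to 243176 to 253363 normalized counts for E13.5, 153329 to 174794 for E16.5, 88364 to 94061 for P0 and 192981 to 204928 for P3. From E13.5 to E16.5, 1 of the 5 was higher and 4 lower, with a median log2 fold change of -0.52. From E16.5 to P0, 3 were lower and 1 higher (median -0.95), where 33.4% of all genes were lower and 27.6% higher. From P0 to P3, 4 were higher and 0 lower (median 1.12), where 40.1% of all genes were higher and 36.4% lower. The 7 Sertoli cell markers summed to 3827 to 5239 for E13.5, 12468 to 19037 for E16.5, 21495 to 42167 for P0 and 8679 to 11442 for P3, and none of them was at or under 3 reads in all libraries of a stage. Clu and Inha made up most of these sums, with means of 2723 and 557 at E13.5 and 11041 and 2373 at E16.5. From E13.5 to E16.5, 4 of the 7 markers were higher and 3 did not pass, with a median log2 fold change of 0.84. Over all genes tested, 45.5% were higher and 34.6% lower in this step, with a median of 0.31. The 4 peritubular markers summed to 171.0 to 224.2 at E13.5 and 3695 to 4157 at P0, and the 5 mast cell markers to 0 at E13.5 and 1406 to 3050 at P0. Leydig, blood and macrophage or endothelial markers had their lowest sums, over all 12 libraries, of 179.2, 66.3 and 743 normalized counts and their highest of 7681, 2532 and 5150. The highest Leydig sum was in E16.5 library 4, at a stage where the lowest was 608 and the median 1210. Cyp17a1 read 131, 339 and 2944 in E16.5 libraries 1, 3 and 4. Library 4 was also the lowest E16.5 library for every member but Rnf17. The highest macrophage or endothelial sum, at E13.5, was mostly Pecam1, with a mean of 4618 ± 400 there. Adgre1, Csf1r, Cd68, Cdh5 and Kdr had E13.5 means of 2.13, 8.79, 46.7, 9.92 and 2.84. From E13.5 to E16.5, 5 of these 6 markers were higher and 1 lower. In bulk samples, fewer cells of a type and less RNA per cell cannot be told apart, and the part of other cells in the results below was not tested.

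All 8 genes differed among the 4 stages (limma F-test, adjusted p from 4.77e-14 for Tdrd1 to 5.58e-09 for Tdrd6), where 95.2% of all tested genes did. No single pattern covered the group. Tdrd1, Tdrd5, Tdrd7 and Stk31 had their highest mean at E16.5, Tdrd3 and Rnf17 at E13.5, Tdrd6 at P0 and Tdrd12 at P3. The lowest mean was at P0 for Tdrd5, Tdrd12, Rnf17 and Stk31, at E13.5 for Tdrd1 and Tdrd6, and at P3 for Tdrd3 and Tdrd7. These orders are on the scaling of the deposited table.

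**Figure D1:**
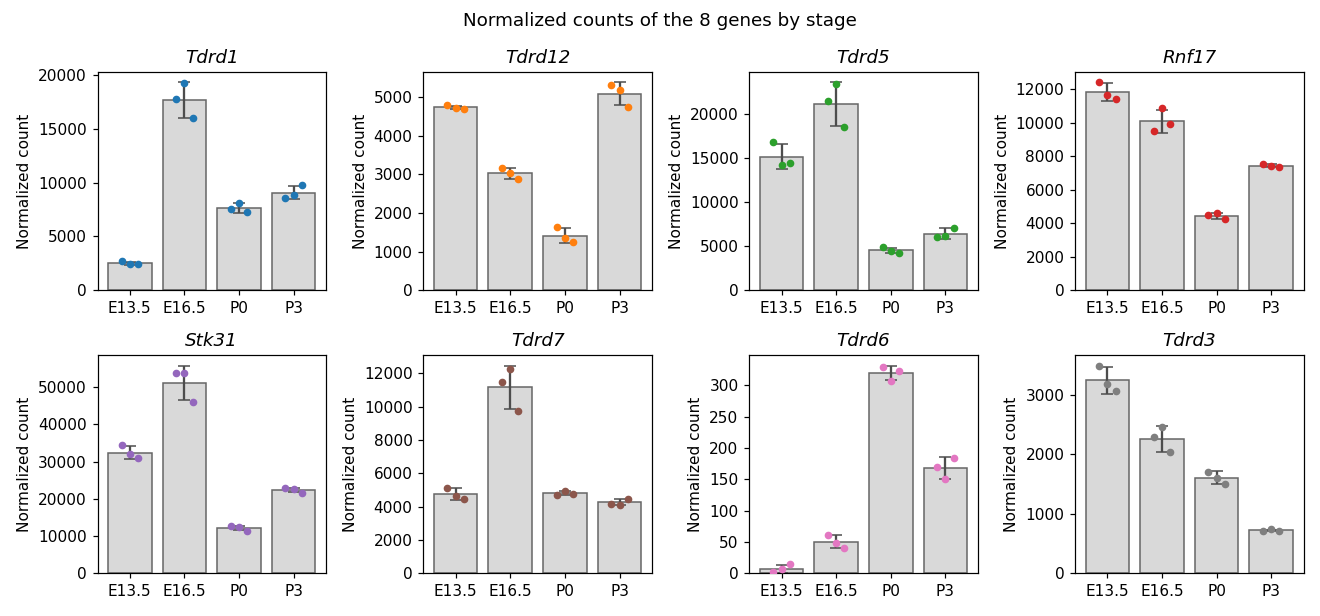
Normalized counts (vertical axis, linear from 0, a separate scale in each panel) of the 8 genes at the 4 stages; points are the 3 libraries of a stage, bars their mean and error bars the SD. Tdrd1, Tdrd5, Tdrd7 and Stk31 are highest at E16.5, Tdrd6 is highest at P0, and Tdrd3 is lower at each later stage.

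Tdrd1 encodes a multi-Tudor protein that binds MILI (the product of Piwil2) in intermitochondrial cement. The gene (ENSMUSG00000025081) is on chromosome 19 (+ strand; GRCm38 start 56826209, end 56870012), with 27 merged exons by GENCODE. In libraries 1, 3 and 4, its normalized counts at E13.5 read 2671, 2416 and 2457, and E16.5 gave 17729, 19299 and 16000.3. The P0 libraries gave 7574, 8103 and 7226, followed by 8551, 8869.9 and 9738 for P3. Every E16.5 library was above every other library, and every E13.5 library was below every other. Tdrd1 rose 7.01-fold from E13.5 to E16.5 (log2 fold change 2.81, SE 0.0800, limma adjusted p 1.50e-14) and fell by 1.21 on the log2 scale from E16.5 to P0 (adjusted p 1.33e-09). The difference of P3 from P0, a log2 fold change of 0.25 (adjusted p 0.0107), turned with the scaling and was -0.20 with median-of-ratios factors and -0.60 with equal library totals. Over all alternatives its adjusted p ranged from 1.82e-06 to 0.350, and without P3 library 4 it was 0.0539.

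The promoter of Tdrd1 is shown because this gene rose most among the members with a high level. The RefSeq window on GRCm38.p6 runs from 250 bases before to 50 bases after the start, at chr19:56825959-56826258 on the + strand. Capitals mark the E-box CACGTG, a palindrome and thus the same on both strands, which starts 11 bases before the start site.
Tdrd1: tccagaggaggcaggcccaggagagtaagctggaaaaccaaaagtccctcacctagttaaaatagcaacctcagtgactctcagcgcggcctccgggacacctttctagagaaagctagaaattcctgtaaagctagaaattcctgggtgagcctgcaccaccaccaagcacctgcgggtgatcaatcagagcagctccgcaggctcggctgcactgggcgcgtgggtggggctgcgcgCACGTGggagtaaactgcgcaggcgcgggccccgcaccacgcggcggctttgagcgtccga

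Tdrd12 encodes a Tudor protein with a helicase-like domain that acts in the production of secondary piRNAs. The gene (ENSMUSG00000030491) lies on the - strand of chromosome 7, at 35469098 to 35537745. The E13.5 libraries of Tdrd12 gave 4779.6, 4720.4 and 4692 normalized counts, E16.5 gave 3167, 3036 and 2868, P0 gave 1628, 1349 and 1255, and P3 gave 5311, 5189 and 4745. The P3 and E13.5 libraries overlapped, and both stages were above E16.5, which was above P0. Tdrd12 fell by 0.65 on the log2 scale at E16.5 (limma adjusted p 3.62e-06) and fell by 1.11 at P0 (adjusted p 1.24e-08), where the former was -0.14 with equal library totals (adjusted p 0.0771, range over alternatives up to that value). From P0 to P3 it rose 3.62-fold (log2 fold change 1.86, SE 0.0877, adjusted p 8.92e-12). This rise stayed positive under each scaling, at 1.01 on the log2 scale with equal totals, and was larger than that of 92.3% of all genes tested. Between E13.5 and P3 the log2 fold change was 0.10 (SE 0.0877, adjusted p 0.315), so no difference was shown on the scaling of the file.

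Tdrd5 encodes a protein with LOTUS domains and a Tudor domain that is needed for assembly of the chromatoid body. The gene (ENSMUSG00000060985) lies on the - strand of chromosome 1, at 156255296 to 156303664. A gene on the opposite strand, 4930518J20Rik, covers 2.54% of its exonic bases, and whether counting used strand is not given in the sources used here. For Tdrd5, E13.5 gave 16738, 14170.0 and 14401 normalized counts, E16.5 gave 21416, 23339 and 18421, P0 gave 4844, 4481 and 4218, and P3 gave 5985, 6173 and 7068. The 4 stages did not overlap, and the drop between E16.5 and P0 was the widest step. Tdrd5 rose by 0.48 on the log2 scale at E16.5 (SE 0.0953, limma adjusted p 0.000223) and fell by 2.22 at P0 (adjusted p 9.19e-12), a change lower than that of all but 2.19% of genes tested. From P0 to P3 the log2 fold change was 0.50 (adjusted p 0.000148), but 0.06 with median-of-ratios factors and -0.34 with equal library totals (adjusted p over alternatives 1.30e-06 to 0.535).

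Stk31 encodes a protein with a Tudor domain and a kinase-like domain. The gene (ENSMUSG00000023403) lies on the + strand of chromosome 6, at 49395604 to 49469501. With Stk31, E13.5 gave 34427, 31936 and 31024 normalized counts, E16.5 gave 53959, 53851 and 45984, P0 gave 12727, 12425 and 11508, and P3 gave 22909, 22608 and 21664. As for Tdrd5, the order was E16.5, E13.5, P3 and P0, with no overlap between stages. Stk31 rose by 0.66 on the log2 scale at E16.5 (SE 0.0744, limma adjusted p 4.27e-07), fell by 2.07 at P0 (adjusted p 1.81e-12) and rose by 0.87 at P3 (adjusted p 1.47e-08). The last difference was 0.03 with equal library totals (adjusted p 0.560). Across the 12 libraries, Tdrd5 and Stk31 had the highest Pearson correlation of log2(normalized count + 1) among the 28 pairs of members, at 0.96. The libraries fall into 4 stages and share their size factors, so this value describes like stage patterns only.

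The promoters of these members are shown because their levels moved together most closely. Both are RefSeq windows on GRCm38.p6, Stk31 at chr6:49395354-49395653 on the + strand and Tdrd5 at chr1:156303299-156303598 on the - strand. In Stk31 the capitals mark the E-box CACGTG, 120 bases before the start. In Tdrd5 they mark GCGGGAA, an E2F6-type motif read here on the reverse strand, which opens the window at 250 bases before the RefSeq start. That start lies 316 bases downstream of the GENCODE start of Tdrd5, so the whole window is inside the gene as placed by GENCODE.
Stk31: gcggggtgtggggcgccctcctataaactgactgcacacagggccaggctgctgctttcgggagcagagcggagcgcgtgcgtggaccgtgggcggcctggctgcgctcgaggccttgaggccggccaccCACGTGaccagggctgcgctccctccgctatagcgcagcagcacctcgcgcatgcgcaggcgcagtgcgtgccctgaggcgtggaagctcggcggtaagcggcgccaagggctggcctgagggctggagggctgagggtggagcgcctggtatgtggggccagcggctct
Tdrd5: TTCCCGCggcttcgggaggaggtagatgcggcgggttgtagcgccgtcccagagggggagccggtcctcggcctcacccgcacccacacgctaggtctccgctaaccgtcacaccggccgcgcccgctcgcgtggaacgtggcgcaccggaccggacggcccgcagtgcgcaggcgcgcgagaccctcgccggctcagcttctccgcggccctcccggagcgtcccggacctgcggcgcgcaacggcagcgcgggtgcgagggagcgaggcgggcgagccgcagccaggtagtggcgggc

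RefSeq windows were matched for 6 of the 8 members, 12 windows in all, and not for Tdrd6 and Rnf17. Where a member had several, the one nearest the GENCODE start was used. The E-box was in the windows used for Tdrd1 and Stk31, and CACGTG is in 7.15% of the 32817 windows of this length over all genes. GCGGGAA, searched on both strands, was in the Tdrd5 window only, against 4.60% of all windows. The cyclic AMP response element, a palindrome of TGACG and its reverse complement that share the central CG, was in none of the 6 and in 1.79% of all. The windows used for Tdrd5, Tdrd3, Stk31 and Tdrd1 held 48, 43, 28 and 20 CpG dinucleotides, and those for Tdrd12 and Tdrd7 held 9 and 4, against a median of 7 over all windows. Tdrd7 also has windows 6963 and 7497 bases downstream of its GENCODE start, each with 32 CpG dinucleotides. A match describes letters, not a bound site.

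Rnf17 encodes a protein with a RING finger and Tudor domains that restrains piRNA amplification between PIWI proteins. The gene (ENSMUSG00000000365) lies on the + strand of chromosome 14, at 56402581 to 56525032. From E13.5, Rnf17 gave 12401, 11648 and 11375 normalized counts, E16.5 gave 9474, 10836 and 9931, P0 gave 4461, 4612 and 4252, and P3 gave 7528, 7399 and 7346. Stages did not overlap, although E13.5 and E16.5 lay close together. At E16.5 Rnf17 was lower than at E13.5, at -0.23 on the log2 scale (SE 0.0669, limma adjusted p 0.00487), and this was -0.01 with median-of-ratios factors and 0.28 with equal library totals (adjusted p over alternatives 0.000779 to 0.918). At P0 it was 2.27-fold lower than at E16.5 (limma adjusted p 2.05e-10), and it passed as lower under each scaling tried. At P3 it was higher than at P0 by 0.74 (adjusted p 3.06e-08), or by -0.10 with equal totals (adjusted p over alternatives up to 0.159).

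Tdrd7 encodes a protein with LOTUS and Tudor domains that takes part in building the chromatoid body and is also known from the lens. The gene (ENSMUSG00000035517) lies on the + strand of chromosome 4, at 45965334 to 46034761. Across libraries 1, 3 and 4 of Tdrd7, E13.5 gave 5139.6, 4644 and 4483 normalized counts, E16.5 gave 11469.98, 12282 and 9734, P0 gave 4719, 4938 and 4738, and P3 gave 4190.1, 4119 and 4455. The E16.5 libraries stood above all others, while the P0 and E13.5 libraries overlapped. Tdrd7 rose 2.34-fold at E16.5 (log2 fold change 1.23, SE 0.0829, limma adjusted p 5.72e-10) and fell by 1.21 on the log2 scale at P0 (adjusted p 1.99e-09). The log2 fold change was -0.17 from P0 to P3 and -0.16 from E13.5 to P3 (adjusted p 0.0666 and 0.0982). Scaling decides these differences: from E13.5 to P0, the log2 fold change was 0.02 (adjusted p 0.868) on the scaling of the file, while with equal library totals P0 was higher (adjusted p 3.04e-10; range over alternatives up to 0.994).

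Tdrd6 encodes a large multi-Tudor protein of the chromatoid body, known from spermatocytes and spermatids. The gene (ENSMUSG00000040140) lies on the - strand of chromosome 17, at 43615335 to 43630299. It was the lowest member in every library. The E13.5 libraries gave 2.11, 6.53 and 14.7 normalized counts, which stand for 2 to 14 reads, and E16.5 gave 61.1, 49.3 and 41.2. P0 gave 329.99, 307.6 and 323.4, whereas P3 gave 170.6, 150.3 and 184.2. The stages did not overlap, and the P0 libraries were the highest. Tdrd6 rose by 2.83 on the log2 scale at E16.5 (SE 0.410, limma adjusted p 7.84e-06) and by 2.66 at P0 (adjusted p 3.06e-05), the latter above 96.6% of all genes tested. The former value lay between 1.81 and 3.39 over the alternatives, at 2.22 without E13.5 library 1 and at 3.39 without E13.5 library 4. From E13.5 to P0 the log2 fold change was 5.49 (adjusted p 1.51e-09). This value depends on the pseudocount at so few reads, and lay between 4.28 and 6.55 over the alternatives. From P0 to P3 the log2 fold change was -0.93 (SE 0.410, adjusted p 0.0494), with adjusted p from 4.97e-06 to 0.122 over all alternatives. The call was lost in 9 of the 12 fits that leave out 1 library, those without an E16.5, P0 or P3 library. It held without any 1 of the E13.5 libraries and in the fit of only the 2 stages compared. The SE is shared by all 4 stages, and relative to their mean the E13.5 libraries spread most. Sums of Sertoli, peritubular and mast cell markers and the number of genes with a read were also highest at P0, and their part in the Tdrd6 level was not tested.

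Tdrd3 is the member known from all cell types rather than the germ line. Its protein reads methylated arginines on histones and RNA polymerase and works with the topoisomerase TOP3B. The gene (ENSMUSG00000022019) lies on the + strand of chromosome 14, at 87416639 to 87545504. Library by library, Tdrd3 at E13.5 gave 3488, 3177 and 3054 normalized counts, E16.5 gave 2293, 2458 and 2029, P0 gave 1709, 1606 and 1498, and P3 gave 719.0, 737.5 and 719.7. Each later stage was lower than the one before without overlap. On the log2 scale Tdrd3 fell by 0.52 at E16.5, fell by 0.49 at P0 and fell by 1.14 at P3 (limma adjusted p 3.51e-05, 0.000121 and 3.44e-09). With equal library totals these were -0.02, 0.17 and -1.98, so only the fall after birth passed under each scaling. Between E13.5 and P3 it was 4.45-fold lower (log2 fold change -2.16, SE 0.0868, adjusted p 1.55e-12).

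Counted over the group, 8 of 8 members changed from E13.5 to E16.5 (5 upward, 3 downward), where 80.1% of all genes changed (45.5% upward and 34.6% downward). With equal library totals 6 passed as higher and 0 as lower. The median log2 fold change of the members was 0.57, against 0.31 for all genes tested. With equal totals these medians were 1.07 and 0.84. Between E16.5 and P0 all 8 changed, 1 higher and 7 lower, where 61% of all genes changed, 27.6% higher and 33.4% lower. The members' median was -1.19, against -0.01 for all genes. Under the other scalings 6 or 7 members were lower at P0 and 1 was higher. With equal totals the members' median was -0.53, against 0.68 for all genes. Between P0 and P3, 5 were higher, 2 lower and 1 did not pass, where 76.5% of all genes changed (40.1% higher and 36.4% lower), with medians of 0.37 and 0.05. This balance turned with the scaling: with equal library totals 1 was higher and 5 lower, and with median-of-ratios factors 3 and 4. The all-gene median moved as well. With equal totals it was -0.86, against -0.47 for the members, and with median-of-ratios factors -0.42, against -0.07. The consecutive comparisons share libraries, so their fold changes are not independent of each other.

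**Figure D2:**
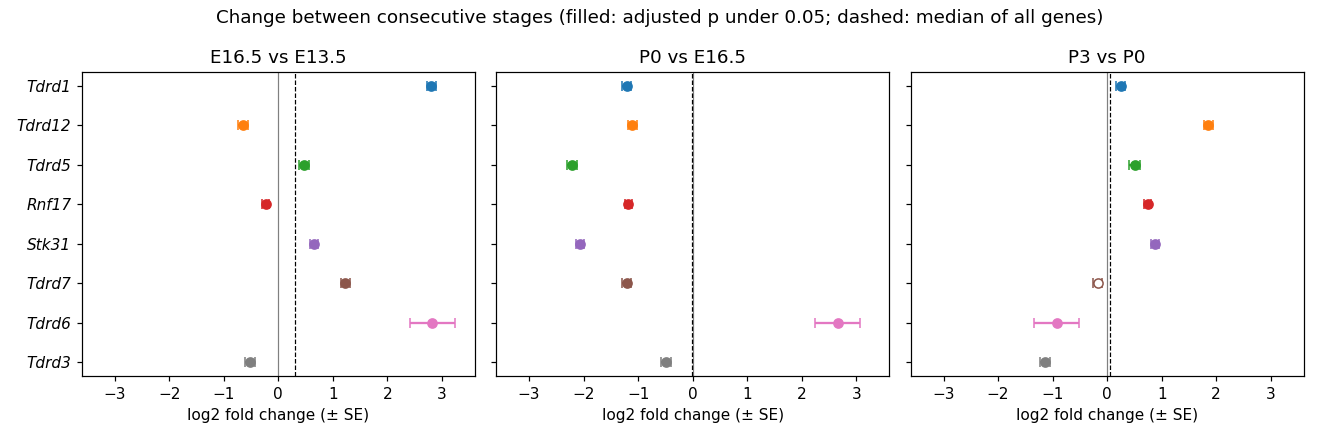
Log2 fold change (horizontal axis) of the 8 genes in the 3 comparisons of consecutive stages, with SE from limma as error bars; filled points passed an adjusted p under 0.05, and the dashed line is the median of all 22384 genes tested. At P0 against E16.5 Tdrd6 lies at 2.66 and the other 7 genes lie below 0; at P3 against P0 Tdrd12 lies at 1.86, on the scaling of the file.

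Within 1 genotype tag the counts were as follows. Between E13.5 and P0, both tagged Morc1 (+/-), 7 of 8 members changed, 2 higher and 5 lower, where 86.1% of all genes did (45.7% higher and 40.5% lower). Tdrd1 rose by 1.60 and Tdrd6 by 5.49 on the log2 scale, while Tdrd12 fell by 1.75 and Tdrd5 fell by 1.74. Rnf17 and Stk31 fell by 1.41 each, and Tdrd3 fell by 1.01, which was 0.16 with equal library totals (adjusted p over alternatives up to 0.0615). Equal totals move the median of all genes by 1.31 in this comparison. They leave -0.24 for Rnf17 and for Stk31, -0.57 for Tdrd5 and -0.58 for Tdrd12, with 3 members higher and 4 lower and a median of -0.04 in place of -1.21. The median of all genes was 1.51 with equal totals, in place of 0.20. Between E16.5 and P3, both tagged Morc1 (-/-), all 8 changed, 2 higher and 6 lower, where 69.5% of all genes did (34.2% higher and 35.2% lower). Here Tdrd6 rose by 1.73 and Tdrd12 by 0.75, and Tdrd5 fell by 1.71, Tdrd3 by 1.63, Tdrd7 by 1.39, Stk31 by 1.19, Tdrd1 by 0.96 and Rnf17 by 0.44 on the log2 scale. The directions in this comparison held under every scaling tried.

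E13.5 and P3 differ in tag, so stage and tag cannot be told apart between them. Between E13.5 and P3, 6 of 8 members changed, 2 higher and 4 lower, where 70.4% of all genes did (39.2% higher and 31.2% lower). Tdrd6 rose by 4.56 and Tdrd1 by 1.85 on the log2 scale, and Tdrd3 fell by 2.16, Tdrd5 by 1.24, Rnf17 by 0.67 and Stk31 by 0.53. Tdrd7 and Tdrd12 did not pass. With equal totals 3 were higher and 4 lower, with a median of -0.02, against 0.47 for all genes.

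**Figure D3:**
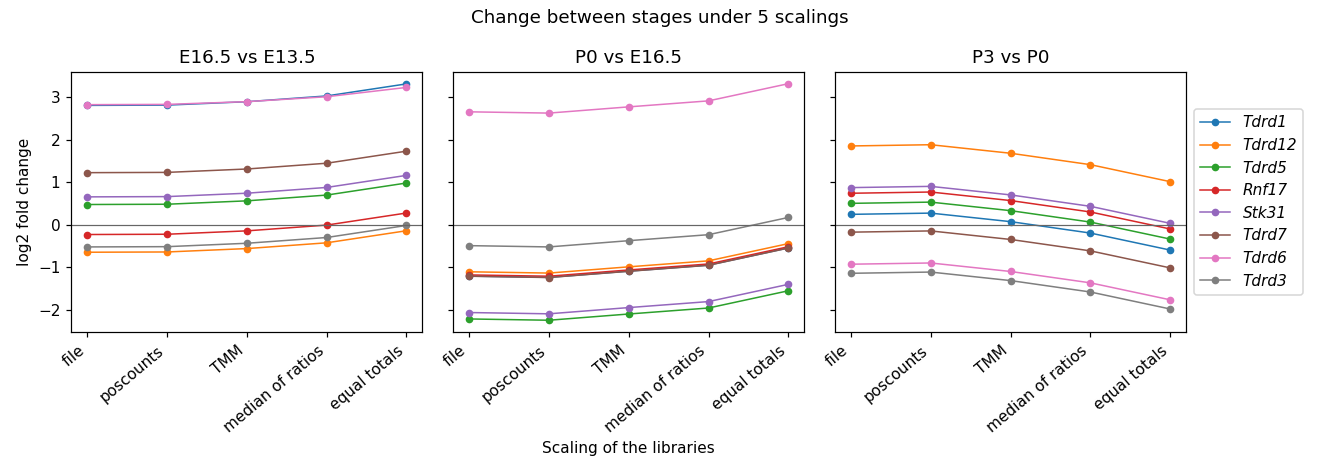
Log2 fold change (vertical axis) of the 8 genes in the 3 comparisons of consecutive stages under 5 scalings of the libraries (horizontal axis, the scaling of the file at the left and equal library totals at the right), 1 line per gene. In the right panel Tdrd1, Tdrd5 and Rnf17 cross 0, from 0.25, 0.50 and 0.74 to -0.60, -0.34 and -0.10, while Tdrd12 stays above 0 and Tdrd3 and Tdrd6 stay below it.

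Levels between genes were compared per kilobase of merged exon, since longer transcripts give more reads. Stk31 was the highest member at every stage, with 10029 ± 544 normalized counts per kilobase for E13.5, 15837 ± 1413 for E16.5, 3775 ± 196 for P0 and 6918 ± 201 for P3. Between 98.5% and 99.7% of all genes tested lay below it, as the lowest and highest value over the libraries. At E16.5 Tdrd1, Tdrd5 and Tdrd7 followed, at 3247 ± 303, 3036 ± 357 and 2820 ± 329, and these neighbours overlapped. At E13.5 Tdrd1 was second from last, at 462 ± 25.2, and at P0 and P3 it came next after Stk31, at 1403 ± 81.1 and 1663 ± 113. Rnf17 and Tdrd5 overlapped at P0 (712 ± 29.0 and 651 ± 45.3), and Rnf17, Tdrd12 and Tdrd7 at P3 (1190 ± 15.1, 1171 ± 68.7 and 1075 ± 44.7). Tdrd6 was last throughout, from 1.10 ± 0.906 at E13.5 to 45.4 ± 1.63 at P0.

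The make-up of the group can be given free of library scaling, as each gene's share of the summed level per kilobase of the 8 genes. In developmental order, the share of Tdrd1 was 2.66% ± 0.0502, 11.8% ± 0.312, 16.7% ± 0.616 and 12.7% ± 0.908 (n = 3). Its E13.5 libraries were below all others and its P0 libraries above all others. Stk31 held 57.7% ± 0.291, 57.3% ± 1.01, 45.0% ± 0.474 and 52.9% ± 1.36 in the same order, so its E13.5 and E16.5 shares overlapped and its P0 share was the lowest. Tdrd7 held 6.91% ± 0.109, 10.2% ± 0.314, 14.5% ± 0.625 and 8.22% ± 0.362, highest at P0. Tdrd12 had 6.28% ± 0.288, 2.53% ± 0.146, 3.87% ± 0.413 and 8.95% ± 0.496. Tdrd5 had 12.5% ± 0.516, 11.0% ± 0.384, 7.76% ± 0.295 and 7.06% ± 0.662, of which the P0 and P3 libraries overlapped. Rnf17 held 10.9%, 5.87%, 8.49% and 9.09%, Tdrd3 3.07%, 1.35%, 3.15% and 0.913%, and Tdrd6 at most 0.576% in any library. A share also depends on the other genes in the sum. On the scaling of the file, the sum per kilobase was 27632 ± 2453 at E16.5 and 8387 ± 379 at P0. Tdrd1 and Tdrd7 each fell by 1.21 on the log2 scale between these stages, although their shares rose. These shares are descriptions, with no test.

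**Figure D4:**
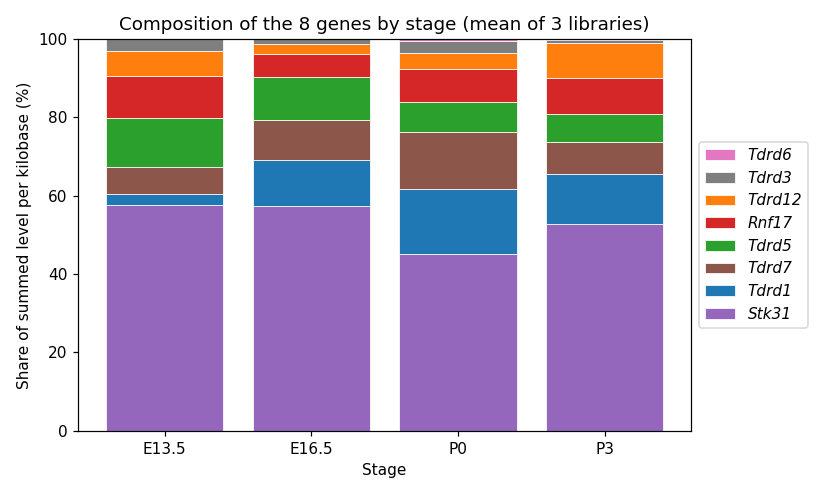
Share of each gene in the summed level per kilobase of the 8 genes (vertical axis, percent) at the 4 stages, as means of 3 libraries; a share does not depend on how libraries are scaled. Stk31 takes from 45.0% to 57.7%, and Tdrd1 goes from 2.66% at E13.5 to 16.7% at P0.

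Genes that work with these proteins were taken from 4 lists. Beside the list counts, 45.5% of all genes tested were higher and 34.6% lower from E13.5 to E16.5, on the scaling of the file. These shares were 27.6% and 33.4% from E16.5 to P0, and 40.1% and 36.4% from P0 to P3. The list of other Tudor genes of the germ line has 5 genes, of which 4 were matched in the table by symbol, Tdrd15 not. Tdrd9, the Tudor helicase partner of MIWI2, rose by 6.44 on the log2 scale at E16.5, from 241.6 ± 9.84 to 21131 ± 2116 normalized counts (limma adjusted p 1.64e-17), more than any of the 8 members. It fell by 0.85 at P0, a call lost under another scaling (-0.19 as the smallest change over the alternatives, adjusted p up to 0.0686), and fell by 1.27 at P3. Tdrkh, the mitochondrial Tudor protein of piRNA trimming, had 9386 ± 74.4 and 9969.9 ± 485 at E13.5 and E16.5 (limma adjusted p 0.278). That log2 fold change lay between 0.06 and 0.59 over the alternatives (adjusted p 4.62e-07 to 0.492). Tdrkh then fell by 1.86 at P0 and rose by 1.32 at P3. Snd1, a Tudor nuclease, fell by 0.44 at E16.5, which was 0.07 with equal library totals, fell by 1.67 at P0 and rose by 0.93 at P3, the last down to 0.08 over the alternatives (adjusted p up to 0.401). Akap1, an anchoring protein of the mitochondrial surface with a Tudor domain, fell by 2.42 at E16.5 and rose by 1.63 at P3 (adjusted p 8.05e-10), with -0.20 at P0 (adjusted p 0.131). The value at P0 was 0.46 with equal library totals (adjusted p over alternatives 0.00304 to 0.660). Counted over these 4, 1 was higher and 2 lower at E16.5; then 3 were lower at P0 and none higher, and 3 were higher at P3 with 1 lower. With equal library totals these became 2 and 1, 1 and 2, and 2 and 1, and the median of the 4 at E16.5 went from -0.18 to 0.33.

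The list of PIWI proteins and piRNA partners has 16 genes, all tested. At E16.5, 14 were higher than at E13.5 and 1 lower, with a median log2 fold change of 2.25, and 14 or 15 were higher under each other scaling. All 16 were lower at P0 than at E16.5 (median -1.14), and under the other scalings 12 to 16 were lower and 0 higher. At P3, 11 were higher than at P0 and 4 lower (median 0.47), but with equal library totals 5 were higher and 11 lower. The 4 with the highest level per kilobase were Fkbp6, Mael, Ddx4 and Piwil2. Fkbp6, a co-chaperone of piRNA loading, rose by 1.51 on the log2 scale at E16.5, from 26549 ± 1431 to 75778 ± 8437 normalized counts (limma adjusted p 3.33e-11). Mael, a granule protein of transposon silencing, rose by 2.41, and Piwil2, the partner of Tdrd1, by 2.09. Ddx4, the germ cell helicase whose promoter drives the Venus marker, was lower by -0.25 at E16.5 (adjusted p 0.00588), which was 0.26 with equal totals.

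The list of arginine methylation genes, whose enzymes make the marks that Tudor domains bind, has 7 genes, all tested. At E16.5, 6 were lower and 1 higher than at E13.5 (median -1.29), with 4 lower and 1 higher under equal library totals. Prmt1 went from 21921 ± 718 to 8937 ± 260 normalized counts and fell by 1.29, and Prmt5, the enzyme known to methylate PIWI proteins, fell by 0.53 (limma adjusted p 8.07e-06), which was -0.03 with equal totals. Clns1a, a cofactor of Prmt5, fell by 2.36. Prmt9 was the one higher, by 0.86. At P0 all 7 were lower than at E16.5 (median -0.77), against 3 lower and 1 higher with equal totals. At P3, 6 were higher than at P0 and 1 did not pass (median 1.10), against 4 higher and 3 lower with equal totals.

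The list of TDRD3 partners has 4 genes. Top3b rose by 0.73 on the log2 scale at E16.5 and fell by 1.66 at P0, from 18177 ± 1790 to 5746 ± 332 normalized counts (limma adjusted p 2.89e-11), and was at -0.12 from P0 to P3 (adjusted p 0.193). Fxr2 rose by 0.46 at E16.5, and Fxr1 fell by 0.69 there and fell by 0.77 at P0, both negative under each scaling. The call for Fxr1 at P0 was lost under another scaling (-0.10 as the smallest change over the alternatives, adjusted p up to 0.112). Fmr1, which encodes the fragile X protein, lay between 7187 ± 608 and 9634 ± 344 over the stages. Counted over the list, 2 were higher and 2 lower at E16.5 (median 0.13), 1 higher and 3 lower at P0 (-0.63), and 1 higher and 1 lower at P3 (-0.07). With equal totals these were 3 and 1, 1 and 1, and 0 and 4.

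**Figure D5:**
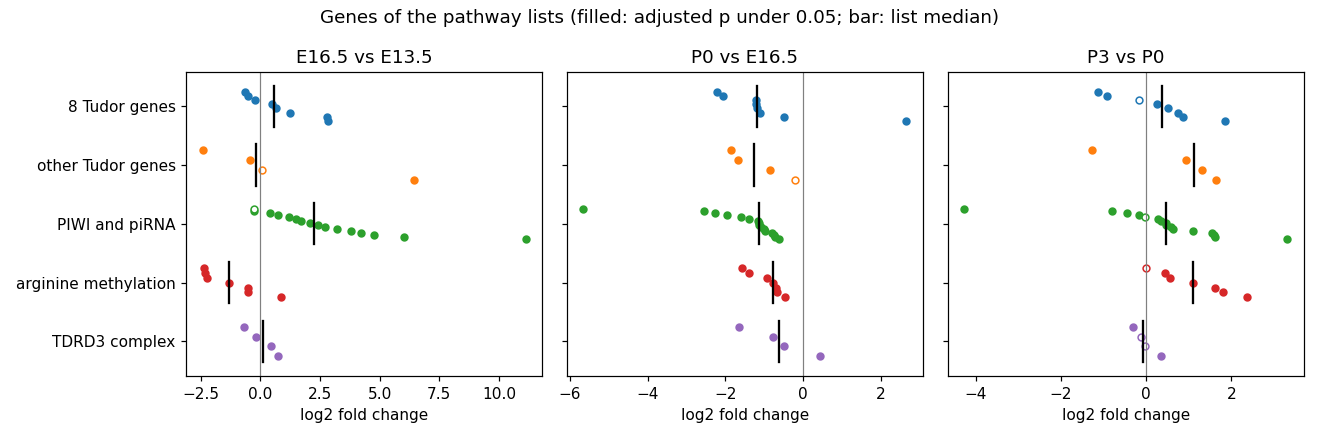
Log2 fold change (horizontal axis, a separate scale in each panel) in the 3 comparisons of consecutive stages for the 8 Tudor genes and the 4 lists of partner genes (rows); filled points passed an adjusted p under 0.05, and the black bar is the median of the list. On the scaling of the file the list medians at E16.5 against E13.5 run from -1.29 for arginine methylation to 2.25 for PIWI and piRNA partners, with 0.57 for the 8 Tudor genes.

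The genes most like each member were those with the highest Pearson correlation of log2(normalized count + 1) over the 12 libraries, among 12202 other genes with a mean of at least 100. For Tdrd1 they were Morc1, the gene the series is named for, and Wscd1, at 0.995 and 0.993. In developmental order Morc1 had 1697 ± 115, 31378 ± 2641, 7496 ± 214 and 10880.5 ± 276 normalized counts, the same order of stages as Tdrd1. On the scaling of the file, Morc1 was not lower in the stages tagged Morc1 (-/-). The order of P3 and P0 rests on that scaling, as equal library totals move the all-gene median by -0.91 (log2) from P0 to P3. Each stage carries 1 tag, so these values compare stages and not genotypes. For Tdrd6 they were Rxrg and Syndig1l (0.990 and 0.988), for Tdrd12 Gins3 (0.997), and for Tdrd3 Mterf2 and Gapvd1 (0.996 and 0.993). For Tdrd5 they were Rcbtb1 and Phkb (0.997 for each), for Stk31 Tldc1 and Me2 (0.996 and 0.995), for Tdrd7 Usp28 and Med24 (0.993 and 0.992), and for Rnf17 Nup188 (0.993). No member was among the 2 nearest genes of another member. With 4 stage patterns and so many genes, correlations this high describe likeness of stage means only.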

How the data were processed

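RNA of male germ cells was sequenced in 12 samples, 3 per stage. Per the labels' protocols, a SMART-seq v4 kit (low input) and a TruSeq mRNA kit were used. The submitters' processing notes name bcl2fastq 2.20, cutadapt 1.18, HISAT2 2.1.0, featureCounts 1.5.2 and DESeq2 1.26.0, and the builds mm10 and GRCm38. The strand setting, the annotation and how multi-gene reads were counted are not given in the sources used here. The authors deposited a signal per gene, reads divided by 1 size factor per library (RLE, per the file name). Divided by the smallest value of its library, 100% of values came out whole (tolerance 0.001), so reads and size factors were recovered. Column heads carry the numbers 1, 3 and 4, which are not the replicate numbers of the titles, so columns were assigned to stages only.

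The test was limma 3.58.1 in R 4.3.3 on log2(normalized count + 1), with trend, all 12 libraries in 1 fit (8 residual degrees of freedom), Benjamini-Hochberg adjusted over 22384 genes; fold changes understate low genes. Alternatives were 4 other scalings, a pseudocount of 0.1 or 10, tests without the filter or on genes averaging 100 or more, calls restricted to log2 fold changes of size 1 or more, fits of only the 2 stages compared, leaving out each library, a replicate block on the column numbers (added after the data were seen), and edgeR 4.0.16 and DESeq2 1.42.0 on recovered reads. Over the 3 consecutive comparisons, in developmental order, edgeR called 17851, 14370 and 17358 genes, DESeq2 17806, 14156 and 17233, and limma 17932, 13658 and 17122. On simulated data with 200 genes changed 4-fold at P0, limma recovered 99% to 100% of them in the comparisons with P0, among 20987 genes tested. It made 3 to 9 false calls there. The simulation gave all genes the same dispersion and used known size factors, so it does not bear on the choice of scaling. Members, lists and motifs were chosen with earlier results of these data known. Named genes are the members, the list genes (4 per list by level per kilobase) and the 2 nearest genes of each member, of which some are not reported here. Symbols matched 55141 of 55487 identifiers, through GENCODE M21 on GRCm38, which also gave positions and exon lengths. At most 0.0185% of a member's 50-base words occur in transcripts of other genes. Python 3.11.15, numpy 2.4.6, pandas 2.3.3 and matplotlib 3.10.9 were used for the rest.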

Additional observations from a re-analysis of the deposited data

How the results depend on the processing

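A replicate block on the replicate number of the labels was planned only for columns that carry it, and these do not. A replicate block on the number in the column heads (1, 3 or 4; 6 residual degrees of freedom) was added after the data were seen. In that fit 6 members in place of 7 changed from P0 to P3, where Tdrd6 had a limma adjusted p of 0.0568, and no other member call differed. Deviations of same-numbered libraries from their stage means correlated between -0.0356 and 0.0423 over 18 pairs, and 3 of 12 libraries correlated best with their own number, so the numbers were not taken to pair the samples. Of 48 log2 fold changes (8 members in 6 comparisons), 34 kept their direction and their side of the threshold under all 24 alternatives. The numbers of members changed stayed within 1.5 times the main number except when calls also needed a log2 fold change of size 1 or more: this left 3 of 8 from E13.5 to E16.5, 2 of 7 from P0 to P3, and 5 of 8 from E16.5 to P3. Directions turned with equal library totals for Rnf17 from E13.5 to E16.5 (0.28) and from P0 to P3 (-0.10), for Tdrd3 at P0 against E16.5 (0.17) and against E13.5 (0.16), for Tdrd1 and Tdrd5 at P3 against P0 (-0.60 and -0.34), and for Tdrd7 at P3 against E13.5 (0.17). With median-of-ratios factors Tdrd1 at P3 against P0 was -0.20. Tdrd7 at P0 against E13.5, which passed no threshold, was -0.00895 with poscounts factors and ran from -0.0263 to 0.0722 when 1 library was left out, with 3 values below 0. Equal totals move the all-gene median (log2) by 0.53, 0.69 and -0.91 over the consecutive comparisons. Among the members, depth limits Tdrd6 at E13.5.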

Other observations

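Ratios of a member to a gene whose protein it is known to work with do not depend on library scaling; these pairs were chosen after the values were seen and carry no test. Per kilobase, Tdrd1 relative to Piwil2 stood, in developmental order, at 0.298 ± 0.0211, 0.491 ± 0.00453, 0.370 ± 0.00471 and 0.450 ± 0.0164 (SD, n = 3), with no overlap between stages. Both genes rose from E13.5 to E16.5, and Tdrd1 by more. Tdrd12 relative to Exd1, whose product is a partner of TDRD12 in piRNA production, was 3.71 ± 0.147, 1.41 ± 0.131, 1.29 ± 0.135 and 3.38 ± 0.0732 in the same order, so E13.5 and P3 stood above E16.5 and P0. Tdrd3 relative to Top3b was 0.410 ± 0.0246, 0.172 ± 0.00920, 0.386 ± 0.0145 and 0.190 ± 0.0162, higher at E13.5 and P0 than at E16.5 and P3. The stages with the higher ratio of Tdrd3 to Top3b are those tagged Morc1 (+/-), and stage and tag cannot be told apart there.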
